A study of Homo sapiens with 6 samples.

Results

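The plasminogen activators and their serpin inhibitors were followed as 7 genes, the rows of the count table named PLAU, PLAT, PLAUR, SERPINE2, SERPINB2, SERPINB7 and SERPINB8, out of 58735 named genes. All 7 were found and all 7 passed the filter on low counts. RNA came from 8505C, a cell line established from a human anaplastic thyroid carcinoma, and 6 libraries were sequenced. In 3 of them, control1 to control3, the cells carried a control hairpin and bear a wild-type genotype label. In the other 3, KD1 to KD3, the cells carried a short hairpin RNA against HHEX and are labelled HHEX KD. HHEX encodes a homeobox transcription factor of thyroid development. All 6 are labelled untreated. Whether the KD-labelled cells were a pool or 1 clone is not stated in those labels.

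Plasminogen is a circulating zymogen that urokinase (PLAU) and tissue-type plasminogen activator (PLAT) cleave to plasmin, a broad protease of fibrin and matrix. The urokinase receptor (PLAUR) holds urokinase at the cell surface, and serpins stop such proteases by offering a bait loop that traps them. Protease nexin-1 (SERPINE2) inhibits thrombin, urokinase and tissue-type activator, and SERPINB2, also called plasminogen activator inhibitor 2, inhibits urokinase and stays largely inside the cell. SERPINB7 and SERPINB8 belong to the same intracellular clade B. Loss of SERPINB7 causes a palmoplantar keratoderma, and SERPINB8 inhibits furin. In carcinomas urokinase and its receptor are studied as part of invasion.

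Some libraries stood against their label or apart from their group. HHEX lay at 12.7, 12.8 and 11.9991 CPM (counts per 1000000 counts of the library) in control1 to control3, against 14.8, 7.94 and 7.13 CPM in KD1 to KD3. The library labelled KD1 was thus above every control, and directions below are those of the KD-labelled libraries. HHEX did not pass the test between groups (log2 fold change −0.33, SE 0.28, adjusted p = 0.527 by edgeR), nor did it without KD1 (−0.73, SE 0.22, adjusted p = 0.330 by edgeR). The fit without KD1 called 0 of all genes, and its unadjusted p for HHEX was 0.0106 by edgeR. KD2 and KD3 were below every control. Their exact 95% Poisson intervals, for counting error only, were 6.53 to 9.56 and 5.81 to 8.66 CPM. The lowest control interval, of control3, began at 10.3 CPM. The interval of KD1, 12.9 to 16.9 CPM, overlapped those of all controls, such as 11.1 to 14.8 CPM in control2. That KD1 was above the controls is thus within counting error. KD1 and KD2 had r = 0.989 with each other in log2 CPM of tested genes, and 0.955 and 0.956 with KD3, while KD3 correlated with the controls at 0.971 to 0.977. The titles give 2 of the 3 libraries in each group the same first replicate number, and the columns do not show which. No label ties a library to a separate culture, so the SDs and tests below, which treat the 3 libraries of a group as separate replicates, cover a spread that may be partly technical. Total counts over named genes were 13333245 to 15144176 per library. Of the thyroid markers NKX2-1, PAX8 and FOXE1 were detected, while TG, TSHR and SLC5A5 lay under 1 CPM in every library. Epithelial KRT7, KRT8 and KRT18 were high, and CDH1 and KRT19 lay under 1 CPM throughout. In bulk RNA, fewer cells that express a gene and less RNA per cell cannot be told apart.

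SERPINB7, SERPINB2 and SERPINB8 lie near each other in the clade B serpin row of chromosome 18, and their promoters are shown because SERPINB2 and SERPINB7 carry the 2 highest fold changes among the members. PLAUR is shown beside them because it shares a motif with them. On GRCh38, SERPINB7 (ENSG00000166396) spans chr18:63752935-63805376, SERPINB2 (ENSG00000197632) chr18:63871692-63903890 and SERPINB8 (ENSG00000166401) chr18:63969925-64019779, all on the plus strand and within 266845 bases. PLAU (ENSG00000122861) lies at chr10:73909177-73917497 on the plus strand. PLAUR (ENSG00000011422) at chr19:43646095-43670547 and SERPINE2 (ENSG00000135919) at chr2:223975112-224039319 are on the minus strand. RefSeq promoters (GRCh38.p14) matched 6 of the 7 genes, with 10 start sites in all. PLAT was not matched. The 250 bases before the start of SERPINB2 (chr18:63887455-63887704), of 1 of the 3 starts of SERPINB7 (chr18:63777531-63777780), of SERPINB8 (chr18:63969831-63970080) and of PLAUR (chr19:43670170-43670419, minus strand) read as follows, 5′ to 3′ on the strand of the gene. Capitals mark matches to TGANTCA, a loose pattern for AP-1 sites in which N is any base, and to TATAAA, the letters of the TATA box. Matches were taken at any distance from the start within the window.
SERPINB2: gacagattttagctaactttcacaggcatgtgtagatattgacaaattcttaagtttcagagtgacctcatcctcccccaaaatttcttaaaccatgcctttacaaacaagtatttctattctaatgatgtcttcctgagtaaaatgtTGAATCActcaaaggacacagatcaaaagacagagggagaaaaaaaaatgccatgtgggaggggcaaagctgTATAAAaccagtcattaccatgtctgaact
SERPINB7: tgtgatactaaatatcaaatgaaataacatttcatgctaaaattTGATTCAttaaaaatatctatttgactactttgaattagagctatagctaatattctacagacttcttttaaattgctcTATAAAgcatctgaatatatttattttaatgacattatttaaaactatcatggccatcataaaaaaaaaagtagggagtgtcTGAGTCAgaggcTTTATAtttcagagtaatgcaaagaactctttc
SERPINB8: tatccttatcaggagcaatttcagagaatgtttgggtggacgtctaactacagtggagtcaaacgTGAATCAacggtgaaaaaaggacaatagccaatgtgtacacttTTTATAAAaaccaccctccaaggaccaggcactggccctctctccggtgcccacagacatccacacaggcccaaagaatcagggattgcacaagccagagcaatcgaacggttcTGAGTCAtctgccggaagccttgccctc
PLAUR: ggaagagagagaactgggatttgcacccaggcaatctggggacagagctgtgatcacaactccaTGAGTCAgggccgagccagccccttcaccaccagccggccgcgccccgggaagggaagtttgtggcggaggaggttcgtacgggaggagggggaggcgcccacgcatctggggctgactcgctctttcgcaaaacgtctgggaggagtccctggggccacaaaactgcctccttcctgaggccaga

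TGANTCA, which reads the same on both strands, was present before 4 of the 6 matched genes (PLAUR, SERPINB2, SERPINB7 and SERPINB8) and in 5 of the 10 windows. It stood in 6.57% of the 35093 RefSeq windows of this length. In SERPINB2 the match, TGAATCA, began 102 bases before the start and a TATAAA followed at 30 bases. The SERPINB7 window shown held TGANTCA at 206 and 45 bases, and SERPINB8 held it at 185 and 28 bases. PLAUR held it at 186 bases. TATAAA, searched on both strands, was in 3 of the 10 windows, 1 each of SERPINB2, SERPINB7 and SERPINB8, and in 10.7% of all windows. In SERPINB8 matches on either strand overlapped and began 142 and 140 bases before the start. Of the 3 SERPINB7 windows the one shown holds the most matches, another held TGANTCA without TATAAA, and the one at chr18:63752807-63753056 held neither. The windows of PLAU and SERPINE2 held neither motif, but windows of both genes held GGGCGG, the letters of SP1 sites, which stood in 42.6% of all windows. TGACGTCA (the cyclic AMP response element, 1.65% of all windows) and TAATTA (a homeodomain core, 4.35%) were in 0 of the 10 windows. GAANNTTC (heat shock element units, 5.78%) was in 1, of SERPINB7. These matches describe letters, not bound sites, and counts per gene do not show which start was used.

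AU-rich nonamers mark many unstable mRNAs, and the sites found are shown because they are a second feature that SERPINB2 and PLAUR share. TTATTTATT was in the 3′ untranslated regions of 2 of the 7 genes, against 7.19% of 18818 protein-coding genes, taking for each the GENCODE transcript with the longest coding region. The nonamer is in capitals.
SERPINB2: ttttactttgTTATTTATTattttatata
PLAUR: aatattcataTTATTTATTttatacttac
The regions searched were 585 bases long in SERPINB2 and 310 in PLAUR, against a median of 806 over all genes. SERPINB2 held 4 of the shorter ATTTA, or 6.84 per kilobase, against a median of 1.34. SERPINB8 held 8 in 2096 bases and no nonamer, and SERPINE2 held 0 of either in the 185 bases of its chosen transcript.

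Per kilobase, the activators, their receptor and SERPINE2 were more abundant than the 3 clade B serpins in every library. Levels between genes are given as CPM per kilobase of merged GENCODE exons. In the controls SERPINE2 lay at 85.1 ± 20.4 CPM per kilobase (SD, n = 3), PLAU at 61.7 ± 3.53, PLAUR at 29.2 ± 3.68 and PLAT at 18.7 ± 3.17. SERPINB8 followed at 6.16 ± 0.605, then SERPINB2 at 1.88 ± 0.418 and SERPINB7 at 1.84 ± 0.0806. The ranges of SERPINE2 and PLAU overlapped across controls, with SERPINE2 at 62.0 in control3 and PLAU at 65.7 in control2, as did those of SERPINB2 and SERPINB7. The other neighbours in this order were apart. In KD1 and KD2 PLAU was above SERPINE2, at 78.7 and 71.7 against 65.1 and 61.8 CPM per kilobase, while in KD3 they stood at 38.3 and 40.8. SERPINB2 reached 7.30, 6.77 and 8.43 in KD1 to KD3 and there lay beside SERPINB8 (7.44, 7.76 and 7.80). The order of the abundant members rests on the length used, which is 8891 bases of merged exons for SERPINE2 and 2950 for PLAU. By the length of 1 transcript each (1716 and 2321 bases), SERPINE2 ranked above PLAUR and PLAUR above PLAU in all 6 libraries.

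**Figure D1:**
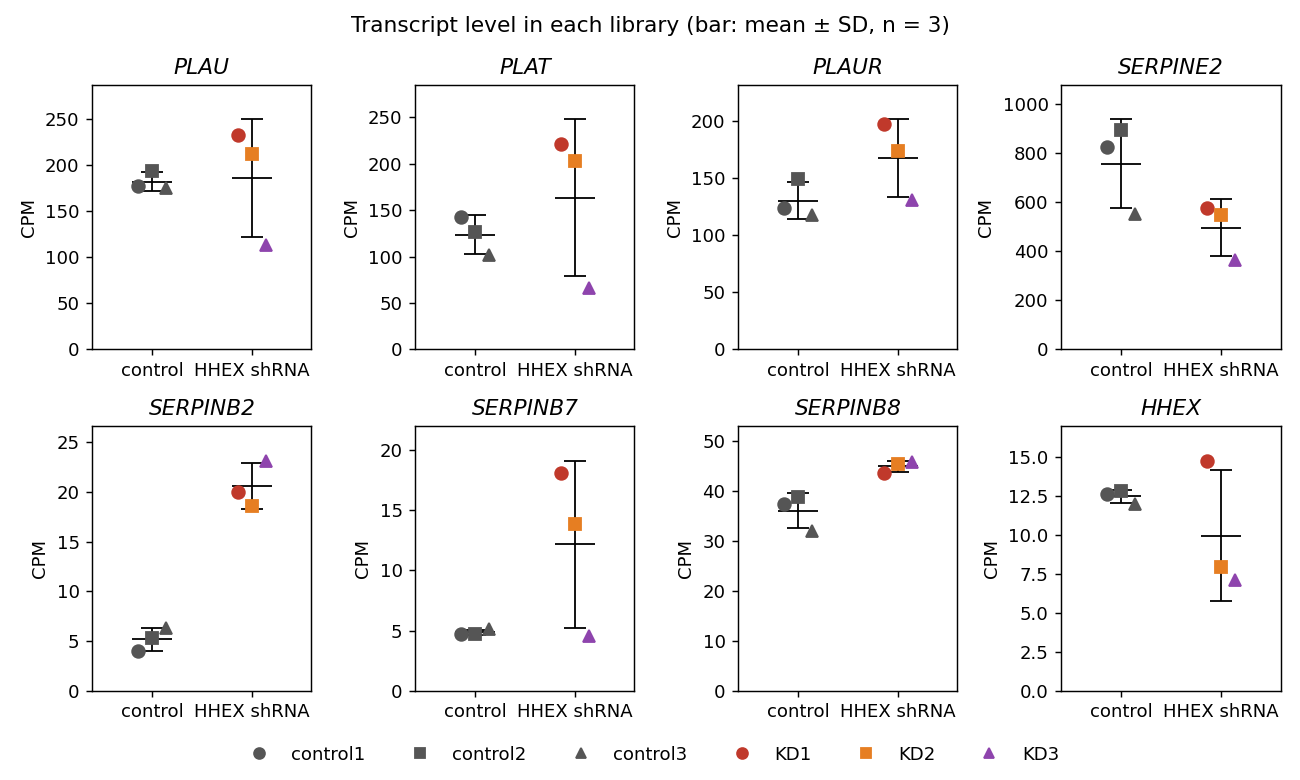
Transcript level in CPM (y axis, from 0) of the 7 genes and of HHEX in the 3 control and the 3 KD-labelled libraries (x axis); points are libraries and bars the mean ± SD. SERPINB2 and SERPINB8 are the members whose groups do not overlap. KD3 is the lowest KD-labelled library for PLAU, PLAT, PLAUR, SERPINE2, SERPINB7 and HHEX.

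Of the 7 genes 1 changed between groups, SERPINB2, which rose (adjusted p under 0.05, quasi-likelihood test of edgeR). Over all 14280 tested genes 26 changed, or 0.182%, of which 15 rose (0.105%) and 11 fell (0.077%). The log2 fold changes of the members had a median of 0.36, 6 positive and 1 negative, against a median of −0.013 over all tested genes. Of the 6, PLAU lay at 0.029 and turned negative in 5 of 13 alternative fits. The members were chosen with earlier results of these data known, so their median and shares are a description and not a test. Before adjustment 4 of 7 members (SERPINE2, SERPINB2, SERPINB7 and SERPINB8) and 20.6% of all tested genes had p under 0.05. SERPINB2 and SERPINB8 had every KD-labelled library above every control, as had 11.6% of all tested genes, and 0 members had every one below, as had 13.3%. Groups that do not overlap in either direction thus made up 2 of 7 members and 24.9% of all tested genes, a share near the background. DESeq2 called 2 members higher, SERPINB2 and SERPINB7, where it called 6.1% of all genes in either direction and 3.22% higher. Without the count filter edgeR called the same 2 higher and SERPINE2 lower, where 4.8% of all genes were called and 2.56% were higher.

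Among the activators, PLAU had group means close to each other. It lay at 177, 194 and 175 CPM in control1 to control3, against 232, 212 and 113 CPM in KD1 to KD3. KD1 and KD2 were above all controls and KD3 below all controls. The log2 fold change was 0.029 (95% confidence interval −0.52 to 0.58, adjusted p = 0.956 by edgeR). It turned to −0.011 without library scaling, to −0.037 with upper-quartile scaling and to −0.16 without KD1. The interval holds changes in either direction, so that equal levels were not shown. C10orf55 overlaps PLAU on the other strand and held 4 to 16 counts per library.

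PLAT (ENSG00000104368), on the minus strand at chr8:42175233-42207724, showed the same division more widely. It lay at 143, 127 and 101 CPM in control1 to control3, against 221, 203 and 66.4 CPM in KD1 to KD3. KD1 and KD2 exceeded every control and KD3 fell short of every control, at log2 differences of 0.85, 0.73 and −0.88 from the control mean. The controls differed by −0.41 to 0.33 from the mean of the other 2. Between groups the log2 fold change was 0.40 (SE 0.41, adjusted p = 0.595 by edgeR). Endothelial cells make PLAT too. The 5 endothelial markers summed to 15.0 to 16.4 CPM in the controls and to 5.08 to 14.9 in KD1 to KD3, with 3 of 5 (VWF, TEK and KDR) under 1 CPM in every library. CDH5 lay at 10.3, 10.4 and 10.9 CPM in control1 to control3, against 11.0, 9.95 and 2.61 CPM in KD1 to KD3. PECAM1 lay at 5.91, 4.92 and 4.11 CPM, against 3.92, 3.86 and 1.91 CPM. Both were lowest in KD3, where PLAT was lowest. In KD1 and KD2, where PLAT was highest, PECAM1 was below all controls, while CDH5 was above all controls in KD1 and below them in KD2. The part of either gene in the PLAT values was not tested.

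PLAUR, the receptor, was highest in the same 2 libraries. It lay at 124, 149 and 118 CPM in control1 to control3, against 198, 174 and 131 CPM in KD1 to KD3. KD1 and KD2 were above all controls, and KD3 was within their range, at a log2 difference of 0.015 from the control mean. The log2 fold change of 0.36 (SE 0.17) did not pass (adjusted p = 0.270 by edgeR). With KD3 left out, PLAU, PLAT and PLAUR passed at log2 fold changes of 0.31, 0.80 and 0.54 (adjusted p = 0.0473, 9.93e-04 and 0.00620 by edgeR). SERPINB2 and SERPINB7 passed there as well, so that 5 of 7 members were higher, in a fit where 31.6% of all genes were called and 16.5% were higher. The KD side of that fit was KD1 and KD2, which were alike (r = 0.989) and may share a first replicate number. Its p-values may thus reflect a partly technical spread. Without KD1 edgeR called 0 members and 0 of all 14789 genes, with 1789 at an unadjusted p under 0.05.

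**Figure D2:**
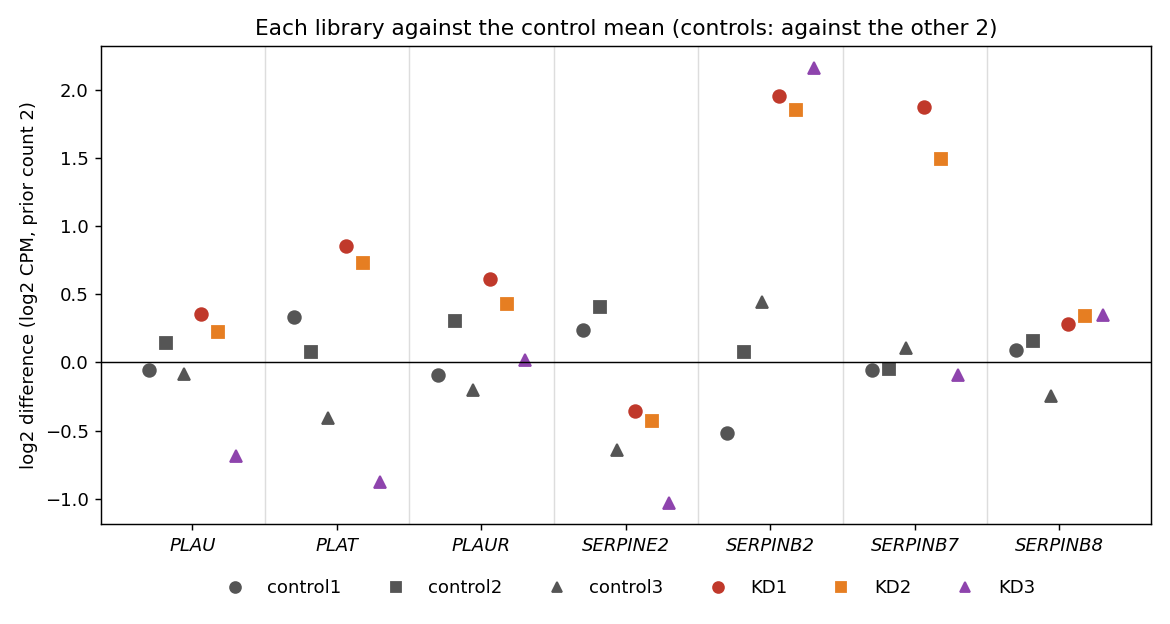
Log2 difference (y axis, log2 CPM with a prior count of 2) of each KD-labelled library from the control mean, and of each control from the mean of the other 2, for the 7 genes (x axis). KD3 is below 0 for PLAU, PLAT, SERPINE2 and SERPINB7, and the 3 KD-labelled points of SERPINB2 sit between 1.85 and 2.16.

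SERPINE2 was the member with a negative fold change. It lay at 826, 894 and 551 CPM in control1 to control3, against 579, 549.9 and 363 CPM in KD1 to KD3. The groups overlapped through control3, which was below KD1. The log2 fold change was −0.61 (SE 0.24, adjusted p = 0.207 by edgeR), and −0.79 without control3 (adjusted p = 0.369 by edgeR). The fit without control3 called 0 of all genes. KD3 was the lowest library, at a log2 difference of −1.03 from the control mean, against −0.36 in KD1 and −0.43 in KD2. Without the count filter SERPINE2 passed (−0.60, adjusted p = 0.0120 by edgeR).

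SERPINB2 was high in all 3 KD-labelled libraries. It lay at 3.97, 5.25 and 6.26 CPM in control1 to control3, from 53, 79 and 96 counts, and reached 20.1, 18.6 and 23.2 CPM in KD1 to KD3, from 297, 260 and 328 counts. The lowest KD-labelled value, of KD2, has an exact 95% Poisson interval of 16.4 to 21.0 CPM, and the highest control one of 5.07 to 7.65 CPM, both for counting error only. The log2 fold change was 1.99 (SE 0.22, 95% confidence interval 1.50 to 2.49, adjusted p = 0.0188 by edgeR). It ranged from 1.86 to 2.15 when a library was left out, and of these 6 fits the one without KD3 passed. By edgeR the adjusted p was 0.0702 without KD1, 0.0657 without KD2, 0.134 without control1, 0.115 without control2 and 0.158 without control3. The fit without control1 called 1 of all genes, and those without control2, control3, KD1 and KD2 called 0. SERPINB10 overlaps SERPINB2 on the same strand and held 0 to 2 counts per library. Monocytes make SERPINB2 too. The 7 leukocyte markers summed to 3.74 to 5.25 CPM in the controls and 4.36 to 5.00 in KD1 to KD3. CD14 lay at 2.77, 4.72 and 3.65 CPM in control1 to control3, against 4.25, 3.72 and 2.12 CPM in KD1 to KD3. CSF1R lay at 0.749, 0.532 and 1.17 CPM, against 0.743, 0.286 and 1.69 CPM. The other 5 of 7 were under 1 CPM in every library. Among them PTPRC was highest in KD3, at 0.918 CPM, and CD163 and LYZ had 0 counts in all 6. The part of these markers in the SERPINB2 values was not tested.

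SERPINB7 was high in the libraries where PLAT was high. It lay at 4.72, 4.72 and 5.09 CPM in control1 to control3, against 18.1, 13.9 and 4.52 CPM in KD1 to KD3. KD1 and KD2 were above all controls. KD3 was below all of them, though its Poisson interval of 3.48 to 5.77 CPM covers the 3 control values. The log2 fold change was 1.33 (SE 0.44, adjusted p = 0.162 by edgeR), 1.75 without KD3 (adjusted p = 3.78e-05) and 0.93 without KD1 (adjusted p = 0.430). The fit without KD3, which rests on the alike KD1 and KD2, called 31.6% of all genes, and the one without KD1 called 0. DESeq2 called it over all 6 libraries (1.35, adjusted p = 0.0356).

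SERPINB8 had a small difference that was alike in KD1, KD2 and KD3. It lay at 37.5, 38.8 and 32.1 CPM in control1 to control3, against 43.7, 45.5 and 45.8 CPM in KD1 to KD3. All 3 KD-labelled libraries were above all controls, and the log2 fold change was 0.32 (SE 0.13, adjusted p = 0.220 by edgeR). HMSD overlaps it on the same strand with 32 to 71 counts per library and AC009802.1 on the other with 5 to 11, and whether strand was used in counting is unknown. Beyond 2-fold from the control mean were SERPINB2 and SERPINB7 in KD1 and KD2, and SERPINB2 and SERPINE2 in KD3. That makes 2 of 7 members in each library, where 12.4%, 12.7% and 5.55% of all tested genes lay as far in KD1, KD2 and KD3.

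The neighbours of SERPINB7 and SERPINB2 on chromosome 18 also differed in which libraries were high. SERPINB5 (maspin), at the other end of the row, lay at 62.6, 57.7 and 54.9 CPM in control1 to control3, against 81.5, 83.7 and 87.7 CPM in KD1 to KD3, with no overlap. It had a log2 fold change of 0.53 (SE 0.12, adjusted p = 0.0986 by edgeR). SERPINB4 held 2, 4 and 2 counts in the controls, and 34, 25 and 0 counts in KD1 to KD3. SERPINB3 held 1, 0 and 1 counts, and then 18, 16 and 0. Both, known as squamous cell carcinoma antigens, had 0 counts in KD3, which allows up to 0.212 CPM. They failed the count filter over all 6 libraries, and as near-identical copies they can share reads. SERPINB11 and SERPINB10 held at most 4 counts in any library, and SERPINB12 and SERPINB13 held 0 in all 6.

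**Figure D3:**
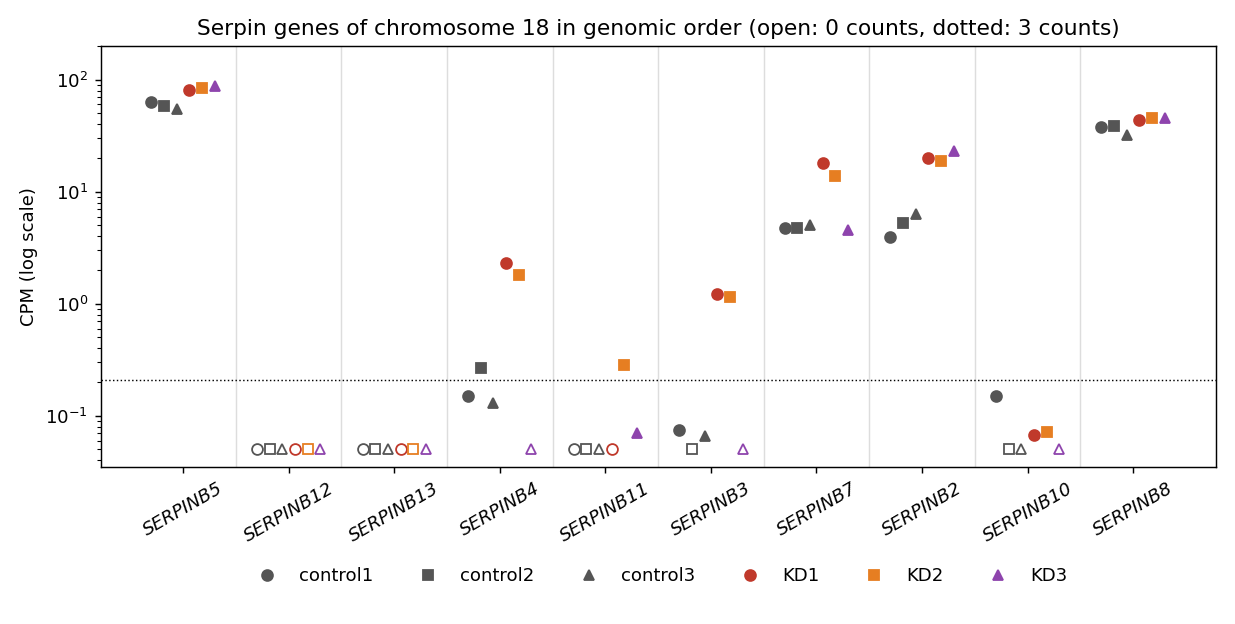
CPM (y axis, log scale) of the 10 clade B serpin genes of chromosome 18 in genomic order (x axis) for each library; open symbols stand for 0 counts and are drawn at the bottom, and the dotted line is the level of 3 counts. SERPINB2, SERPINB5 and SERPINB8 are above the controls in all 3 KD-labelled libraries, and SERPINB3, SERPINB4 and SERPINB7 in KD1 and KD2.

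Ratios of 2 members within a library do not depend on how libraries are scaled, and 4 were taken, on the scale of CPM per kilobase. Their size rests on the merged exon lengths used and so does not show which of 2 members was more abundant. The order of libraries within a ratio does not depend on length. PLAUR to PLAU, receptor to ligand, was 0.463, 0.508 and 0.447 in control1 to control3, against 0.564, 0.544 and 0.767 in KD1 to KD3. All 3 KD-labelled libraries were above all controls (exact two-sided permutation p = 0.1, the smallest that 3 against 3 libraries allow, 0.267 adjusted by Benjamini-Hochberg over the 4 ratios). The ratio was highest in KD3, where PLAU was below the controls and PLAUR was not. PLAU to SERPINE2, activator to inhibitor, was 0.646, 0.654 and 0.955 in control1 to control3, against 1.21, 1.16 and 0.937 in KD1 to KD3. Control3 was above KD3, so the groups overlapped (exact permutation p = 0.2, adjusted 0.267). PLAT to SERPINE2 was 0.232, 0.191 and 0.247 in control1 to control3, against 0.513, 0.495 and 0.246 in KD1 to KD3, with KD3 inside the control range (exact permutation p = 0.2, adjusted 0.267). PLAT to PLAU overlapped between groups as well (exact permutation p = 0.3, adjusted 0.3).

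**Figure D4:**
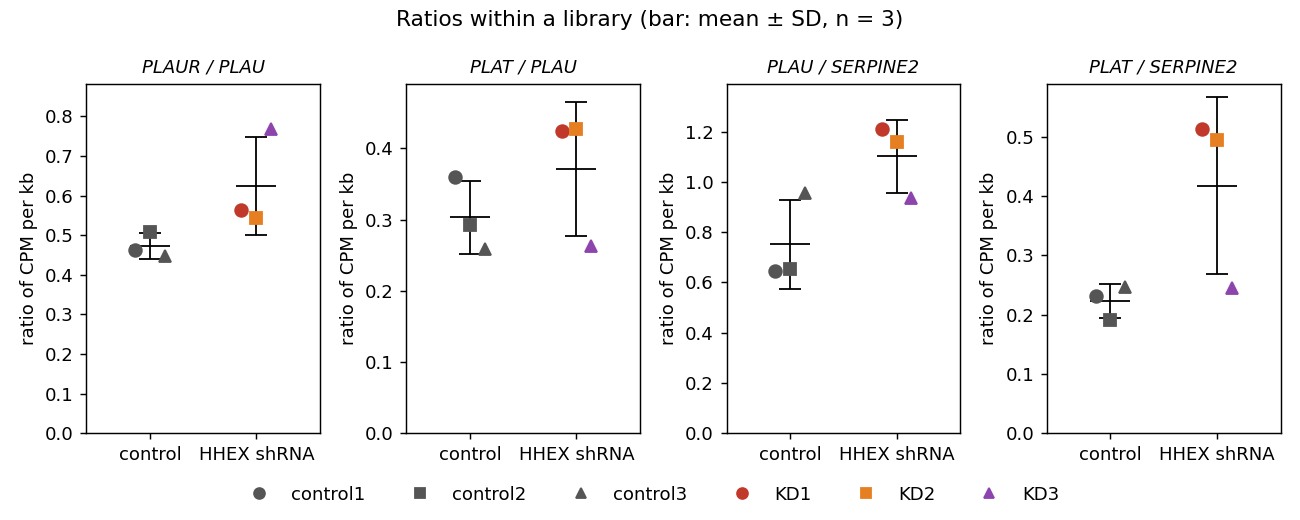
Ratio of 2 members within each library (y axis, ratio of CPM per kilobase, from 0) by group (x axis); points are libraries and bars the mean ± SD. PLAUR to PLAU is the ratio whose groups do not overlap, with 0.508 as the highest control and 0.544 as the lowest KD-labelled library.

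The rest of the plasminogen system was read from 7 lists with 73 genes, all in the table, of which 37 passed the count filter. Of these 1 rose and 0 fell by the test of edgeR, while 7 had a positive and 6 a negative difference at an unadjusted p under 0.05, as had 20.6% of all tested genes in either direction. DESeq2 called 6 of them, CTSL, ITGA3, LRP8, MMP3, SERPINB1 and SERPINB5, against 6.1% of all genes. Of the 37 genes 6 had every KD-labelled library above every control (11.6% of all tested genes) and 5 had every one below (13.3%), shares near the background. Plasminogen itself (PLG), made mainly in liver, had 0 counts in every library, which allows up to 0.225 CPM. Its list, with the cell-surface receptors, had 4 of 5 genes tested, 0 called, and a median log2 fold change of 0.49. Enolase 1 (ENO1) was at 4614 ± 828 against 6658 ± 1409 CPM (SD, n = 3 per group, controls first). S100A10, which with annexin A2 (ANXA2) binds plasminogen and tissue-type activator, was at 175, 228 and 137 CPM in control1 to control3, against 414, 361 and 155 CPM in KD1 to KD3. ANXA2 was at 2037, 2162 and 1708 CPM, against 3219, 2951 and 1876 CPM. Both partners were above all controls in KD1 and KD2, where PLAT was, and inside the control range in KD3. Neither passed over all libraries (adjusted p = 0.260 and 0.306 by edgeR). PLGRKT, a transmembrane plasminogen receptor, had a log2 fold change of −0.29 (adjusted p = 0.539 by edgeR).

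Other inhibitors of plasmin and its activators were scarce. Of 8 list genes 3 were tested, 0 were called and the median log2 fold change was −0.72. SERPINF2, the main inhibitor of plasmin, was at 1.20, 1.20 and 0.717 CPM in control1 to control3, against 0.0675, 0.358 and 0.494 CPM in KD1 to KD3, without overlap but near the level of a few counts (adjusted p = 0.189 by edgeR). SERPINI1 (neuroserpin), an inhibitor of tissue-type activator, was at 4.91 ± 1.64 against 2.99 ± 0.960 CPM, and SERPING1, the inhibitor of complement C1 esterase, at 1.06 ± 0.122 against 0.689 ± 0.508 CPM.

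Receptors that clear urokinase with its inhibitors, and partners of the urokinase receptor, had 12 of 17 list genes tested, 0 called and a median log2 fold change of −0.046. LRP8 was at 50.6, 43.2 and 55.9 CPM in control1 to control3, against 109, 114 and 67.9 CPM in KD1 to KD3 (log2 fold change 0.96, SE 0.21, adjusted p = 0.0986 by edgeR). VLDLR, its close relative, had a log2 fold change of 0.61 (adjusted p = 0.147 by edgeR), and for both the KD-labelled libraries were all above the controls. ITGA3, an integrin chain that binds the urokinase receptor, was at 798, 726 and 695 CPM in control1 to control3, against 518, 515 and 524 CPM in KD1 to KD3. Its groups were apart, and the log2 fold change of −0.51 (SE 0.13) did not pass (adjusted p = 0.120 by edgeR). MRC2, a collagen receptor in complex with the urokinase receptor, was below all controls as well, at a log2 fold change of −0.44 (adjusted p = 0.143 by edgeR).

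Further serpins had differences in both directions. In clade B, 4 of 10 list genes were tested, 0 were called and the median log2 fold change was 0.23. SERPINB1, an inhibitor of neutrophil elastase, was at 116, 116 and 111 CPM in control1 to control3, against 59.6, 54.3 and 81.7 CPM in KD1 to KD3 (log2 fold change −0.81, SE 0.16, adjusted p = 0.0839 by edgeR). SERPINB6 and SERPINB9, which like SERPINB1 lie outside the row on chromosome 18, had log2 fold changes of −0.04 and 0.49. Of the 14 genes in other clades 3 were tested and 0 called, with a median of −0.13. SERPINA1 (alpha-1 antitrypsin) was at 5.25 ± 1.10 against 2.15 ± 1.47 CPM, SERPINH1, a collagen chaperone, at 207 ± 19.2 against 189 ± 21.3 CPM, and SERPINF1 at 3.38 ± 0.920 against 3.96 ± 1.09 CPM.

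Proteases upstream and downstream gave 1 gene that passed. Among activators of pro-urokinase and the Kunitz inhibitors of such proteases, 5 of 10 were tested, 0 were called and the median log2 fold change was 0.06. Cathepsin L (CTSL) was at 152, 173 and 152 CPM in control1 to control3, against 225, 224 and 220.0 CPM in KD1 to KD3, apart between groups (log2 fold change 0.49, SE 0.12, adjusted p = 0.106 by edgeR). CTSB and SPINT1 had log2 fold changes of 0.088 and −0.11, and SPINT2 one of −0.94 (adjusted p = 0.196 by edgeR). Among zymogens and latent factors that plasmin can activate, 6 of 9 were tested and 1 was called, with a median of 0.084. That gene was MMP3, the stromelysin proenzyme, which rose from 5.84, 8.31 and 5.02 CPM in control1 to control3 to 24.2, 23.5 and 39.2 CPM in KD1 to KD3 (log2 fold change 2.18, SE 0.28, adjusted p = 0.0334 by edgeR). With a library left out MMP3 passed in 1 of 6 fits, the one without KD3. In the other 5, where edgeR called 0 or 1 of all genes, its adjusted p was 0.0657 to 0.208. VEGFC, MMP10 and TGFB2 had log2 fold changes of 0.48, −1.20 and 0.29 and did not pass.

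**Figure D5:**
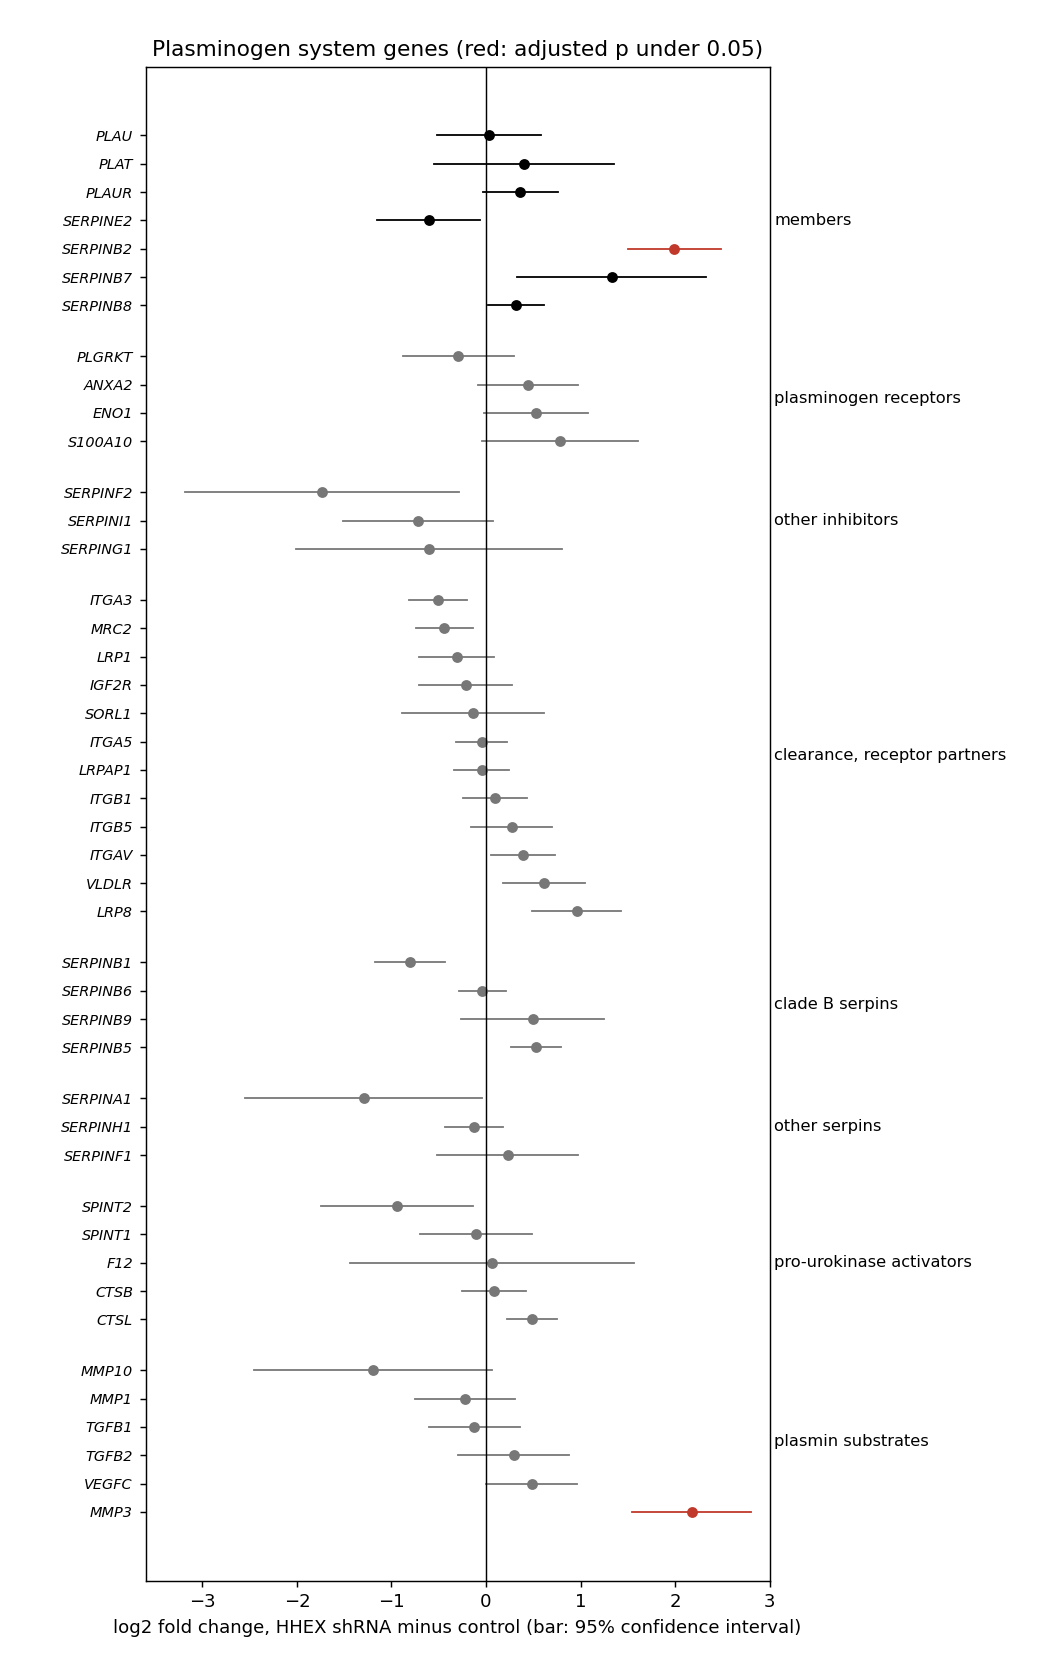
Log2 fold change (x axis, KD-labelled minus control libraries) with its 95% confidence interval for the 7 members and the 37 tested genes of the 7 lists (y axis); red marks an adjusted p under 0.05. SERPINB2 (1.99) and MMP3 (2.18) are the genes in red.

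The genes whose log2 CPM ran closest to each member over the 6 libraries were sought among 10676 genes with a mean of at least 5 CPM. They are given as a description, and the points share libraries of which KD1 and KD2 are alike. Each r is among the 3 highest of this search over 6 libraries, so its size partly reflects the search. Shared regulation was not tested. For SERPINB2 they were UCK2, a uridine-cytidine kinase, BMPER, a binder of bone morphogenetic proteins, and ABHD5, a lipase co-activator (Pearson r = 0.990, 0.990 and 0.989). For SERPINB7 they were TMEM201, ELAC2 and ZW10 (0.999, 0.998 and 0.996), and for PLAT they were CNP, FSTL1 and ARHGEF39 (0.999, 0.998 and 0.997). For PLAUR they were SLBP, ARPC4 and GUK1 (0.999, 0.996 and 0.995), and for PLAU RAP2C, ARFGAP2 and MESD (0.995 each). For SERPINE2 they were C6orf62, TRUB2 and SLC44A2 (0.994, 0.990 and 0.990), and for SERPINB8 RFLNB, RAB10 and PRKAG2 (0.993, 0.988 and 0.982).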

How the data were processed

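RNA was isolated with Trizol and mRNA was captured for TIANSeq libraries, per the labels' protocols. Raw counts per gene, as the authors deposited them, are the base of all values; which aligner, counter and build made them is not given in the sources used here. Further, the 6 deposited columns of another per-sample measure were not used, because column names show the group but not the sample. Of 58735 named genes 58672 have the start and end of GENCODE 29 (GRCh38). The 998 unnamed rows (0.239% to 0.298% of counts) stayed out.

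They were fitted with edgeR 4.0.16 (R 4.3.3) after filterByExpr, with TMM factors, robust glmQLFit and glmQLFTest, no covariates, and Benjamini-Hochberg adjustment over 14280 genes at 0.05. CPM use TMM factors. The fit was also run on simulated counts. These were drawn independently for each library, without shared replicates, so that run does not bear on the spread between the real libraries. Alternatives were RLE, upper-quartile or no scaling, no count filter or 1 CPM in 3 libraries, no robust estimation, DESeq2 1.42.0, a prior count of 0.5 and leaving out each library.

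The members and lists were chosen with earlier results of these data known, and lengths, ratios and AU-rich elements were added after values were seen. Named genes are the members, HHEX, list genes that pass plus up to 4 with the smallest p per list, and the 3 genes most correlated with each member. Markers, chromosome 18 neighbours and overlapping genes were named beyond this rule. Some genes of this system are not analysed here.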

Additional observations from a re-analysis of the deposited data

How the results depend on the processing

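SERPINB8 kept its direction and side of the threshold in all 13 alternative fits, and SERPINB2 stayed positive in all 13 and passed in 8. With a library left out the log2 fold change was −0.16 to 0.31 for PLAU, 0.12 to 0.80 for PLAT, 0.23 to 0.54 for PLAUR, −0.79 to −0.40 for SERPINE2, 1.86 to 2.15 for SERPINB2, 0.93 to 1.75 for SERPINB7 and 0.24 to 0.39 for SERPINB8. PLAU turned negative under upper-quartile scaling (−0.037), without scaling (−0.011) and without control3 (−0.00037), KD1 (−0.16) or KD2 (−0.07). Without the count filter SERPINE2 (−0.60) and SERPINB7 (1.34) passed, with 2 members higher and 1 lower, and 724 genes rose and 635 fell. DESeq2 called SERPINB7 (1.35), 2 members higher, and 451 genes higher and 403 lower. Genes lower numbered 20 under upper-quartile scaling and 22 without scaling, in place of 11. With a library left out 0 to 5 members were higher, 0 to 2438 genes rose and 0 to 2237 fell, the upper ends all without KD3. Where edgeR called 0 genes, without control2, control3, KD1 or KD2, 1625 to 1947 had an unadjusted p under 0.05. The cause was not tested. Of 42 log2 differences of single KD-labelled libraries under another prior count or no scaling, 0 moved by more than 1 SD of the controls. No paired analysis was possible because the column names do not carry the replicate numbers of the titles. At these depths 3 counts lie at 0.196 to 0.225 CPM, which limits SERPINB3, SERPINB4 and SERPINF2.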
